A study of Mus musculus with 2 samples.

Results

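Fat depots are told apart by sets of marker genes that white, beige or brown adipocytes make more of than the others. RNA-Seq values of 9 such genes were followed from brown preadipocytes (D0) to differentiated brown adipocytes (D7). They were chosen by symbol from published selective and surface markers, and each was found once among the 23361 genes with a value in both libraries. Tbx1, Tmem26, Tnfrsf9, Cited1 and Shox2 are read as beige selective, Tcf21 and Slc7a10 as white selective, and P2rx5 and Slc36a2 as surface markers of brown and beige adipocytes. The last pair is therefore no marker of beige or white cells against brown ones, although it is grouped here with genes that are.

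The cells came from interscapular brown fat (BAT) of newborn C57BL/6 mice (C57BL/6J in the study's methods), and each stage was represented by 1 library. The labels call them primary cultures grown in DMEM with 20% FBS, whereas the study's methods describe preadipocytes immortalized with large T antigen. The methods name several pups of either sex, aged 1 day, but whether their cells were pooled is not given in the sources used here. Cells of both stages were kept for 4 days in DMEM with 10% FBS to which T3 at 1 nM and insulin at 0.1 μM had been added, and D0 cells had received nothing more. For D7, indomethacin (0.125 mM), dexamethasone (2 μg/ml) and IBMX (0.5 mM) were then added for 2 days, and the medium with insulin and T3 alone followed. These amounts are those of the labels, and the study's methods give other amounts of insulin, dexamethasone and serum. Days in culture and the inducing agents differed together between the stages, so their effects cannot be told apart.

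Beige adipocytes arise in white fat under cold or adrenergic stimulation, and they burn fuel through Ucp1 as brown adipocytes do. Brown adipocytes of the interscapular depot come from the dermomyotome, a lineage shared with skeletal muscle, and white adipocytes store triglyceride and make leptin. Most selective markers were found by comparing cell lines or tissues, and several are also known from cells outside fat. Tnfrsf9 is a receptor of activated lymphocytes, P2rx5 is an ion channel of muscle and immune cells, and Slc7a10 is a transporter of astrocytes and neurons.

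Values were FPKM, the fragments assigned to a gene per kb of its length, scaled to the size of the library. The number of fragments behind each value was recovered from the values themselves, whose denominators were 21476118 (D0) and 18264176 (D7) fragments. Among genes with a single exon, 100% of 76 low values at D0 and of 86 at D7 were whole numbers of fragments to within 0.1. With several exons the lengths are less certain, and over all genes 82.9% and 81.9% of values under 10 fragments were whole. With 1 library per stage there is no test of a difference between stages. Ratios of D7 to D0 are given with exact 95% Clopper-Pearson intervals, which compare the 2 libraries and cover counting error only.

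A few sequences were taken as they bear on how the values can be read or on the genes that differed most. Of 2340 positions at which a 90-base read could begin on the Slc36a2 transcript, 48, or 2.05%, give a read that also lies on Slc36a1, a close relative. These positions make up a single stretch of 137 coding bases in exon 10, bases 1323 to 1459 of the transcript (chr11:55159440-55159576, minus strand, GRCm38), printed here because reads from it could be counted for either gene.
Slc36a2 and Slc36a1, shared stretch: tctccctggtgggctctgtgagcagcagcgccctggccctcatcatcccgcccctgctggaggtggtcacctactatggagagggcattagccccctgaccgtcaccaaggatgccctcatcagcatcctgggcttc

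Promoters of 250 bases before to 50 bases after the start were found in RefSeq (GRCm38.p6) for 7 of the 9 markers, with 11 promoters in all. P2rx5 and Slc36a2 had no entry. The promoters of Slc7a10 (chr7:35186135-35186434, plus strand) and Shox2 (chr3:66981722-66982021, minus strand) are shown, since these genes gave the clearest differences among those with an entry.
Slc7a10 promoter: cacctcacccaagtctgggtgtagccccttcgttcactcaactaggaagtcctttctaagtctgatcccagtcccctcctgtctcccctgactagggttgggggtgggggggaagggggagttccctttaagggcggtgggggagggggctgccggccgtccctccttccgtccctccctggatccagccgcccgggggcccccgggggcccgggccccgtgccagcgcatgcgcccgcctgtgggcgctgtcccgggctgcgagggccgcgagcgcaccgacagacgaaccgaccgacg
Shox2 promoter: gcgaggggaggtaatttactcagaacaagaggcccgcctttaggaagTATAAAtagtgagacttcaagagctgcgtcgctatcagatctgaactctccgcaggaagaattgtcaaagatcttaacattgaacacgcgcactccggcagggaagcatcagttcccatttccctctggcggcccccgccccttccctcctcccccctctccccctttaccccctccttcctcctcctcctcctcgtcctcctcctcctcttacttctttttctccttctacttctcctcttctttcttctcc
The Slc7a10 window held 70.7% G and C and 24 CpG dinucleotides, and the Shox2 window 53.3% and 11, where the median over 32851 promoters was 52.7% and 7. Capitals in the Shox2 sequence mark TATAAA, the letters of the TATA box, whose first base is at position -203 from the start. TATAAA occurs in 13.6% of all promoters of this length. Searched for on both strands were also the PPAR direct repeat AGGTCANAGGTCA (in 0.0396% of all promoters), the nuclear receptor element AGGTCA within it (16.3%), the C/EBP site TTGCNNAA (10.8%), the box CCAAT that binds NF-Y (37.4%) and the cAMP response element TGACGTCA (1.79%). None of these letters were found in the windows of Slc7a10, Shox2, Tcf21, Tbx1 or Tmem26, apart from the TATAAA of Shox2. Tnfrsf9 and Cited1 each had at least 1 match in every promoter listed. A match of letters describes the sequence and does not locate a bound site.

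At D0 the listed FPKM values of the markers formed 3 tiers, of which counting error sets only the first apart from the others. Shox2 (14.0, exact 95% Poisson interval 12.7 to 15.4) and P2rx5 (3.44, 2.93 to 4.03) stood at the top, with intervals that did not overlap. Tmem26, Cited1, Tbx1, Tnfrsf9 and Slc36a2 lay between 0.162 and 0.0414, on 17 fragments or fewer, and each of these overlapped its neighbour in the order. Tcf21 and Slc7a10 were listed at 0, but their intervals end at 0.165 and 0.0968 and overlap those of the middle tier. At D7 the order had changed, with Slc36a2 first at an FPKM of 125 (122 to 128) and P2rx5 second at 12.8 (11.6 to 13.9). Shox2 (4.03, 3.29 to 4.88) and Slc7a10 (3.22, 2.63 to 3.90) followed with overlapping intervals. Cited1, Tbx1, Tmem26 and Tnfrsf9 were between 0.152 and 0.0301, and Tcf21 was again at 0. An FPKM of 1 was thus exceeded by 2 of the 9 markers at D0 and by 4 at D7. Of all 23361 genes, 11254 reached this level at D0 and 11576 at D7, so the marker counts say little. RNA of a whole culture was sequenced, so fewer cells of a type and less RNA per cell cannot be told apart in any of these values.

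**Figure D1:**
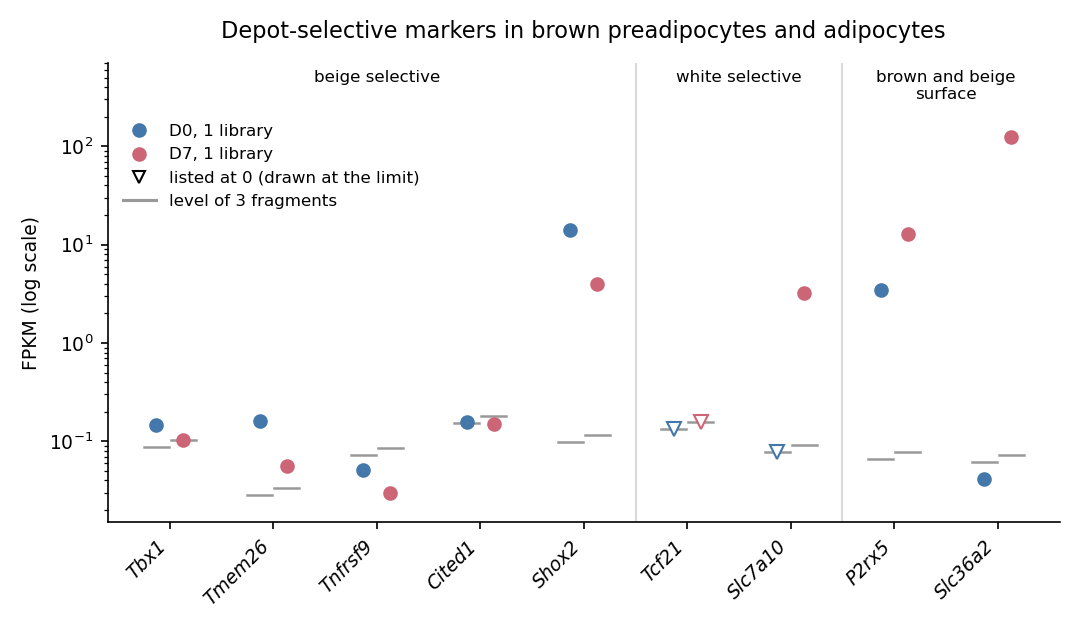
FPKM of the 9 markers (vertical axis, log scale) in the D0 library (blue) and the D7 library (red), with grey bars at the level that 3 fragments of the gene would give and open triangles for genes listed at 0, drawn at that level. The D7 point of Shox2 lies below its D0 point, those of Slc36a2, P2rx5 and Slc7a10 lie above theirs, and the other markers rest on 17 fragments or fewer in each library.

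A gene was counted as higher or lower if the ratio reached 2.0 or fell to 0.5, the fold used in the study's methods. Of 14986 genes above 0 in both libraries, 18.5% were higher at D7 and 13.2% lower, and the median ratio was 1.01. These are 2767 and 1980 genes, and higher genes stayed the larger group under scaling by the median, the upper quartile, TPM or a trimmed mean. The balance turned round under a setting chosen after seeing the data, which covers all 23361 genes, also those listed at 0. With values under 0.01 set to 0.01 and each library scaled to its median over all values, 2836 genes were higher and 3832 lower. Of the 7 markers above 0 in both, 2 were higher (P2rx5 and Slc36a2), 2 were lower (Shox2 and Tmem26) and Tbx1, Tnfrsf9 and Cited1 were within 2.0-fold. Values of up to 3 fragments were then set to the level of 3 fragments and genes at or under it in both libraries were left out. This left 14448 genes, of which 18.4% were higher and 12.6% lower. Of the 6 markers assessed in this way, Slc36a2, P2rx5 and Slc7a10 were higher, Shox2 and Tmem26 lower and Tbx1 within 2.0-fold, while Tnfrsf9, Cited1 and Tcf21 were not above the limit. With so few markers these counts say little against the background, and the values of each gene are given in turn.

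**Figure D2:**
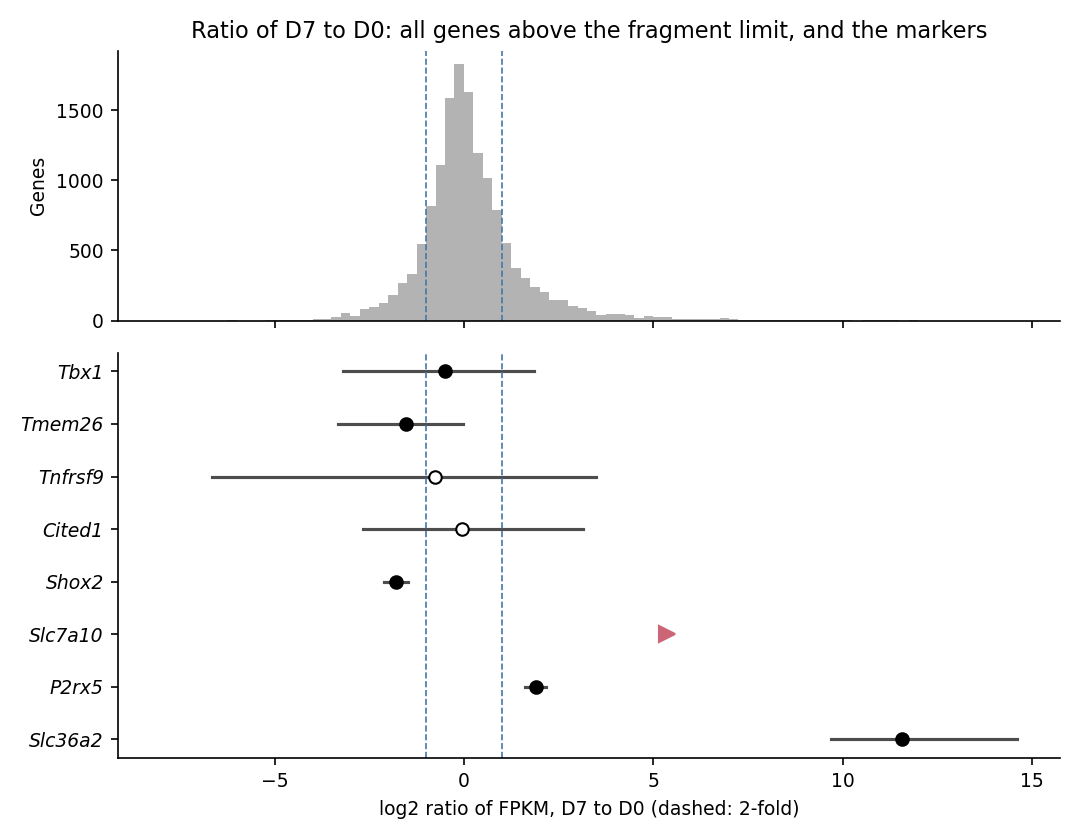
Log2 ratio of FPKM, D7 to D0, for all 14448 genes above the 3-fragment limit (upper panel, number of genes) and for 8 markers (lower panel), with dashed lines at 2.0-fold. Points are deposited ratios, bars exact 95% intervals for counting error, and open points markers at or under 3 fragments in both libraries. The triangle is the ratio of Slc7a10 with its D0 level set to 3 fragments, and its exact interval is not drawn. Only Shox2, P2rx5 and Slc36a2 have bars that lie wholly beyond a dashed line, and the bar of Tmem26 ends just under a ratio of 1.

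Shox2 was the beige selective marker with the most fragments, and it was lower at D7. Shox2 (ENSMUSG00000027833.16, chr3:66971727-66981771, minus strand) encodes a homeobox transcription factor of limb and heart development, which is higher in subcutaneous than in visceral white fat. Its FPKM was 14.0 at D0 and 4.03 at D7, on 427 and 104 fragments. The D7 value was 3.49 times lower, with a ratio of 0.287 (0.229 to 0.356) and a log2 ratio of -1.80. At D0 its level was above that of 79.2% of genes, and at D7 above that of 61.3%. The start of Shox2 overlaps Rsrc1 on the other strand, and 64 of 2990 read positions on its whole transcript of 3079 bases (2.14%) are shared with Rsrc1. The fragment counts of Shox2 rest on the 1595 bases inside the deposited locus, for which the share was not computed. Rsrc1 had a ratio of 0.757, from an FPKM of 19.8 to 15.0. The library preparation marked strand, but whether strand was used in counting is not given in the sources used here.

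Homeobox relatives and known developmental partners of Shox2 did not all follow it. Of 10 such genes other than Shox2, 5 were assessed, 0 were higher, 2 lower and 3 within 2.0-fold, and their median log2 ratio was -0.093 against 0.011 over all genes. The closest in family, Prrx1, a factor of limb mesenchyme and fibroblasts, had FPKM values of 126 (D0) and 118 (D7). Prrx2 had 43.0 and 18.8, a ratio of 0.438 (0.385 to 0.498). Isl1 and Nkx2-5, which act with Shox2 in the heart, were listed at 0 in both libraries.

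Tmem26 was close to the floor of detection and lower at D7. It encodes a membrane protein of unknown function that is used to sort beige precursor cells (ENSMUSG00000060044.8, chr10:68723646-68782650, plus strand). The FPKM was 0.162 at D0 and 0.0562 at D7, which are 17 and 5 fragments over a transcript of 5048 bases. Its ratio was 0.346 (0.0998 to 0.977), so the interval reaches from a 10-fold difference almost to none. The call is lost when the limit is set at 10 fragments, and the ratio becomes 0.909 with 1 added to each FPKM.

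Tbx1, a T-box transcription factor of the pharyngeal arches that is used as a beige marker, gave no call (ENSMUSG00000009097.10, chr16:18580979-18590671, minus strand). Its FPKM was 0.146 at D0 on 5 fragments and 0.103 at D7 on 3. The ratio was 0.707 (0.110 to 3.63), and an interval this wide holds differences of 3.0-fold in either direction. Some other T-box genes were far more abundant in the same libraries, while 4 of them were listed at 0 in both. Of 16 other genes of this family, 9 were assessed, 1 was higher, 1 lower and 7 within 2.0-fold, with a median log2 ratio of -0.21. Tbx15, which is known from brown adipocytes and subcutaneous fat, had the highest FPKM, 47.9 at D0 and 28.9 at D7, which is a ratio of 0.602 (0.568 to 0.637). Tbx5, a factor of the forelimb and heart, had the lowest ratio among those with at least 20 fragments, 0.460 (0.327 to 0.638), from 1.65 to 0.757. Mga had the highest ratio of these, 1.33 (1.24 to 1.44).

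Cited1, a coactivator without DNA binding of its own that binds CBP and p300, lay at the limit in both libraries (ENSMUSG00000051159.16, chrX:102247381-102252181, minus strand). The FPKM was 0.157 at D0 and 0.152 at D7, about 3 fragments each. Its ratio of 0.967 (0.158 to 8.81) therefore says nothing of a difference of up to 6.0-fold. Cited2, the relative that most tissues express, was at 44.0 and 35.6, a ratio of 0.809 (0.750 to 0.873). Cited4 had 0.129 on 3 fragments and 1.12 on 22, a ratio of 8.64 (2.60 to 45.1). Of the 8 relatives and partners of Cited1, 6 were assessed, of which 1 was higher and 5 were within 2.0-fold, with a median log2 ratio of -0.11. The partner coactivators Crebbp and Ep300 had ratios of 0.937 (0.840 to 1.05) and 0.932 (0.868 to 1.00).

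Tnfrsf9, the receptor also called CD137 or 4-1BB, rested on single fragments (ENSMUSG00000028965.13, chr4:150914562-150946102, plus strand). Its FPKM was 0.0512 at D0 and 0.0301 at D7, which are 2 fragments and 1 fragment. The ratio of 0.589 had an interval of 0.00998 to 11.3, so no difference was detectable at this depth. The gene lies within the span of Camta1 on the other strand, with an FPKM of 1.82 and 1.64, but their transcripts share no 90-base stretch. Lymphocytes also make Tnfrsf9, and most of their markers were at or near 0. Of 15 lymphocyte markers 9 were listed at 0 in both libraries, the T-cell receptor chains Cd3d and Cd3g among them, and the sum of all 15 was 0.532 at D0 and 0.188 at D7. Of the list 2 genes were assessed, of which 1 was lower and 1 within 2.0-fold. The lower one was the T-cell kinase Lck, with 13 fragments (FPKM 0.295) at D0 and 0 at D7, more than Tnfrsf9 had at D0. The part of lymphocytes in the Tnfrsf9 value was not tested.

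The ligand of this receptor had more fragments than the receptor itself. Tnfsf9 was at 4.30 at D0 on 103 fragments and at 0.731 at D7 on 15, which is a ratio of 0.170 (0.0927 to 0.297). Of 26 genes of the receptor superfamily, its adaptors and this ligand, leaving out Tnfrsf9, 19 were assessed, and 2 were higher, 6 lower and 11 within 2.0-fold, with a median log2 ratio of -0.46. Tnfrsf1a, the main TNF receptor of most cells, had the highest FPKM, 143 and 138. Cd40, a receptor of immune cells that has itself been named among beige markers, had the lowest ratio, 0.131 (0.0330 to 0.354), from 1.16 on 37 fragments to 0.152 on 4. Ngfr, the low-affinity neurotrophin receptor, had the highest, 2.95 (2.54 to 3.44), from 3.52 to 10.4. Ngfr is also a marker of glia, whose other markers are given with Slc7a10.

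Of the white selective markers, Slc7a10 was detected at D7 only and Tcf21 in neither library. Slc7a10, also called ASC-1, exchanges small neutral amino acids across the plasma membrane and is used as a surface marker of white adipocytes (ENSMUSG00000030495.12, chr7:35186385-35201114, plus strand). It was listed at 0 at D0, where 3 fragments would have given an FPKM of 0.0787, and it was at 3.22 on 104 fragments at D7. Set against those 3 fragments, the D7 level was 40.9-fold higher. The exact 95% interval of the ratio, which covers the counting error of both libraries, begins at 32.6. At D7 this put Slc7a10 above 59.0% of genes, close to Shox2 and under P2rx5.

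Lrp3 and most markers of glia were higher at D7, as Slc7a10 was and as 18.4% of all genes assessed were. Lrp3 overlaps the end of Slc7a10 on the other strand, and 205 of 1864 read positions of Slc7a10 (11.0%) are shared with it. Lrp3 was at an FPKM of 4.67 at D0, where Slc7a10 was at 0, and at 21.9 at D7, which is a ratio of 4.69. Of 8 markers of glia and Schwann cells, 7 were assessed and 6 were higher at D7, with a median log2 ratio of 1.74. Their summed FPKM was 6.01 at D0 and 13.9 at D7. Foxd3, a factor of glial precursors, had the highest ratio, 5.89 (2.89 to 12.8), and S100b the highest FPKM, 2.77 and 5.66. The astrocyte marker Gfap had 2 fragments at D0 and 1 at D7. The part of glia in the Slc7a10 value was not tested.

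Slc7a10 works as a light chain bound to the heavy chain Slc3a2, which it shares with other transporters. Slc3a2 was at 71.5 at D0 and 45.1 at D7, which is a ratio of 0.631 (0.591 to 0.675), so the heavy chain was far above Slc7a10 at each stage. Of the 10 other chains of the SLC7 and SLC3 families, 7 were assessed, 2 were higher, 2 lower and 3 within 2.0-fold, with a median log2 ratio of -0.36. Slc7a5, the light chain for large neutral amino acids of growing cells, was at 40.7 and 13.9, a ratio of 0.341 (0.316 to 0.369). Slc7a7, a cationic and neutral amino acid exchanger, was at 6.20 and 2.69, a ratio of 0.435 (0.343 to 0.547). Slc7a8 was at 0.677 and 1.78, a ratio of 2.63 (1.90 to 3.67). Slc7a6 was at 12.7 and 21.8, a ratio of 1.72 (1.58 to 1.87), and the cystine transporter Slc7a11 at 0.736 and 0.575. The light chains thus differed in direction, and Slc7a10 was the only light chain assessed that had no fragment at D0.

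Tcf21, or epicardin, a bHLH transcription factor of white preadipocytes and visceral fat, was listed at 0 in both libraries (ENSMUSG00000045680.8, chr10:22817281-22820174, minus strand). Had 3 fragments been counted, the FPKM would have been 0.134 at D0 and 0.158 at D7, and the exact 95% intervals of a count of 0 end at 0.165 and 0.194. The dimer partners that Tcf21 needs were measured. Tcf3 was at 27.5 and 12.7, a ratio of 0.462 (0.420 to 0.508), Tcf4 at 16.4 and 11.8, a ratio of 0.720 (0.676 to 0.767), and Tcf12 at 33.1 and 22.4, a ratio of 0.675 (0.637 to 0.715). Of 13 partners, relatives and Id inhibitors with a value, 12 were assessed, 2 were higher, 2 lower and 8 within 2.0-fold, with a median log2 ratio of -0.24. Id3, an inhibitor of bHLH dimers, had the highest FPKM, 220 and 175. Among genes of this list with at least 20 fragments in a library, the lowest ratio was that of the tendon factor Scx, 0.0715 (0.0322 to 0.140), from 8.03 to 0.574. The highest of these was that of Id4, 2.54 (2.20 to 2.95).

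Both surface markers of brown and beige adipocytes were higher at D7, and Slc36a2 gave the largest ratio of the markers above 0 in both libraries. Slc36a2, also called PAT2, carries glycine, alanine and proline into cells together with protons (ENSMUSG00000020264.5, chr11:55158470-55185077, minus strand). Its FPKM was 0.0414 at D0 on 2 fragments and 125 at D7 on 5127 fragments. The ratio of 3020 had an interval of 835 to 24930, since 2 fragments set the lower level only roughly. Against a D0 level of 3 fragments the ratio was 2012, which ranked 9 among 14448 genes. At D0 the level was above that of 37.2% of genes, and at D7 above that of 97.0%.

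Of the relatives of Slc36a2, Slc36a1 and Slc36a4 differed from it at each stage, while Slc36a3 could be told from it only at D7. Slc36a1, which shares the stretch printed above, was at 9.26 at D0 and 8.74 at D7, which is a ratio of 0.944 (0.859 to 1.04). At D0 Slc36a1 thus had 1011 fragments where Slc36a2 had 2. Slc36a4 was at 8.80 and 7.92, a ratio of 0.901 (0.762 to 1.06), and Slc36a3 had 0 fragments and 1 fragment. Of the 3 genes, 2 were assessed and both were within 2.0-fold.

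P2rx5, an ion channel opened by extracellular ATP, was present before differentiation and higher after it (ENSMUSG00000005950.14, chr11:73160421-73172685, plus strand). Its FPKM was 3.44 at D0 on 156 fragments and 12.8 at D7 on 490, which is a ratio of 3.71 (3.08 to 4.46) and a log2 ratio of 1.89. The level was above that of 60.9% of genes at D0 and 77.1% at D7. No 90-base stretch of its transcript was shared with another gene.

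Among the other P2X receptors, P2rx4 had the highest FPKM, 25.3 and 23.2, a ratio of 0.917 (0.834 to 1.01). P2rx6 was at 2.43 and 2.00, a ratio of 0.823 (0.610 to 1.11), and P2rx3 at 0.534 and 1.01, a ratio of 1.89 (1.01 to 3.50). P2rx7, a receptor of macrophages chosen for mention after its values were seen, had 4 and 14 fragments, a ratio of 3.87 (1.30 to 17.2). Of the 6 receptors without P2rx5, 5 were assessed, 1 was higher and 4 were within 2.0-fold, with a median log2 ratio of 0.65. P2rx5 had the second highest level of the family at each stage, after P2rx4.

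Most markers of macrophages, which also make P2X receptors, were higher at D7, as P2rx5 was and as 18.4% of all genes assessed were. Of 11 macrophage markers with a value, 11 were assessed and 10 were higher at D7, with a median log2 ratio of 2.19, and their summed FPKM was 146 at D0 and 519 at D7. Cd163, a scavenger receptor, had the highest ratio, 121 (21.3 to 4833), on 1 fragment at D0 and 103 at D7. Lyz2 had the highest FPKM, 111 and 286, and Cd14 the lowest ratio, 1.06 (0.821 to 1.36). The part of macrophages in the P2rx5 value was not tested.

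**Figure D3:**
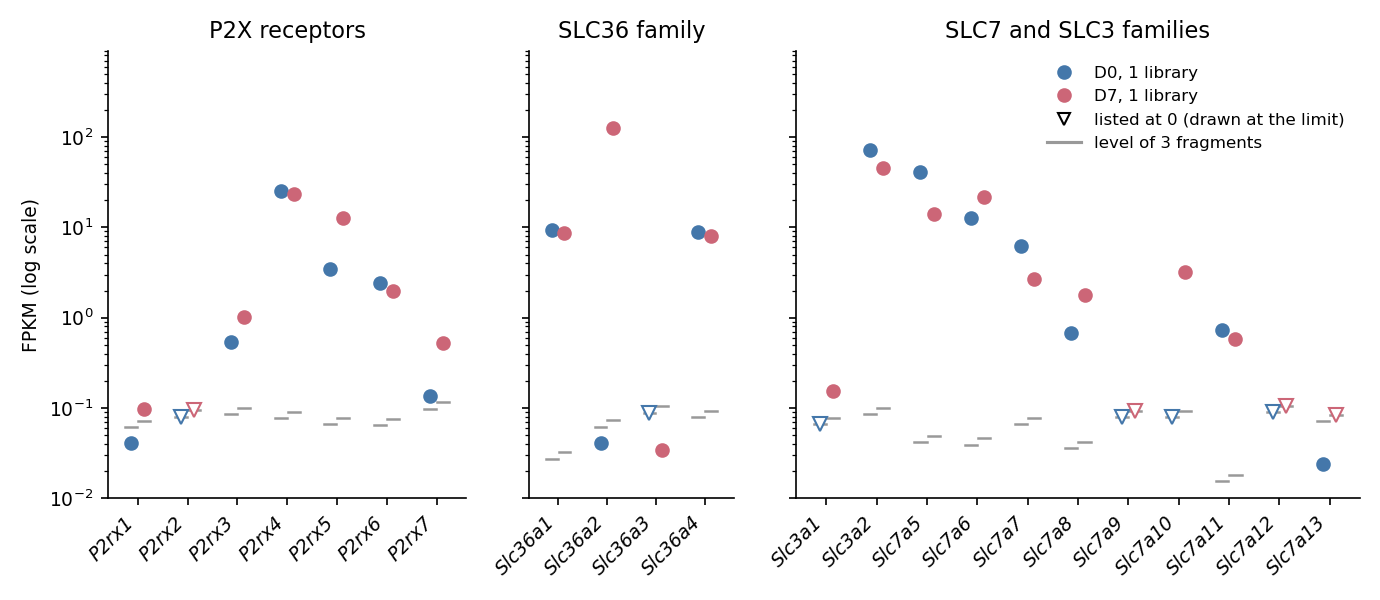
FPKM (vertical axis, log scale) of the P2X receptors, the SLC36 family and the SLC7 and SLC3 families in the D0 library (blue) and the D7 library (red), with grey bars at the level of 3 fragments and open triangles for genes listed at 0. P2rx5, Slc36a2 and Slc7a10 were higher at D7, while P2rx4, Slc36a1 and Slc36a4 had nearly equal points and Slc3a2 and Slc7a5 were lower.

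The other depot markers give the setting in which these values were measured. Of 9 other beige selective genes, 7 were assessed, of which 2 were higher, 2 lower and 3 within 2.0-fold, and the median log2 ratio was -0.086. Aqp7, a glycerol channel that white fat also makes, was at 0.0199 on 1 fragment at D0 and 13.4 at D7, which is a ratio of 677 (121 to 26785). Slc27a1, a fatty acid transporter, had the highest FPKM at D7, 28.4 from 3.70. Cd40, given above with Tnfsf9, had the lowest ratio, 0.131. Hoxc9, the other lower gene, was at 1.51 on 50 fragments and at 0.677 on 19, a ratio of 0.448 (0.249 to 0.773). Of 7 other white selective genes with a value, 6 were assessed, 4 were higher, 1 was lower and 1 was within 2.0-fold, with a median log2 ratio of 1.14. Lep, which encodes leptin, was listed at 0 at D0 and at 8.74 at D7. Retn, which encodes resistin, was at 0.116 on 1 fragment and at 1416, and Psat1, an enzyme of serine synthesis, was at 109 and 40.9. The beige and white lists therefore held genes of either direction. Among the beige selective markers themselves, 3 were assessed, of which 0 were higher, 2 lower and 1 within 2.0-fold. The 1 white selective marker assessed and the 2 surface markers were higher, so the markers differed in direction between their groups and not within them.

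Genes of brown adipocytes were checked in the same way. Of 10 classical brown selective genes, 4 were higher, 0 lower and 6 within 2.0-fold, with a median log2 ratio of 0.41. Zic1, a factor of the dermomyotome lineage, was at 6.51 and 3.97, a ratio of 0.611 (0.510 to 0.730), so it was present in both libraries, and 8 of the 10 genes were above an FPKM of 1 at D0. Mpzl2, an adhesion protein, had the highest ratio of this list, 181 (47.8 to 1445), on 2 fragments at D0 and 296 at D7. Pdk4, a kinase that inhibits pyruvate dehydrogenase, had the highest FPKM, 58.1 at D7 from 4.22, a ratio of 13.7 (12.2 to 15.5). Of 10 thermogenic genes shared by brown and beige cells, 9 were higher and 1 was within 2.0-fold, with a median log2 ratio of 6.25. Ucp1 was listed at 0 at D0 and at 4.57 at D7, a level under that of P2rx5 and within the D7 interval of Shox2 (3.29 to 4.88). Cox7a1, a subunit of cytochrome oxidase in muscle and brown fat, had the highest FPKM, 7.96 and 389. Of 8 genes of adipocytes in all depots, 8 were higher, with a median log2 ratio of 8.10. Fabp4, the fatty acid binding protein, went from 20.3 to 14391.

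**Figure D4:**
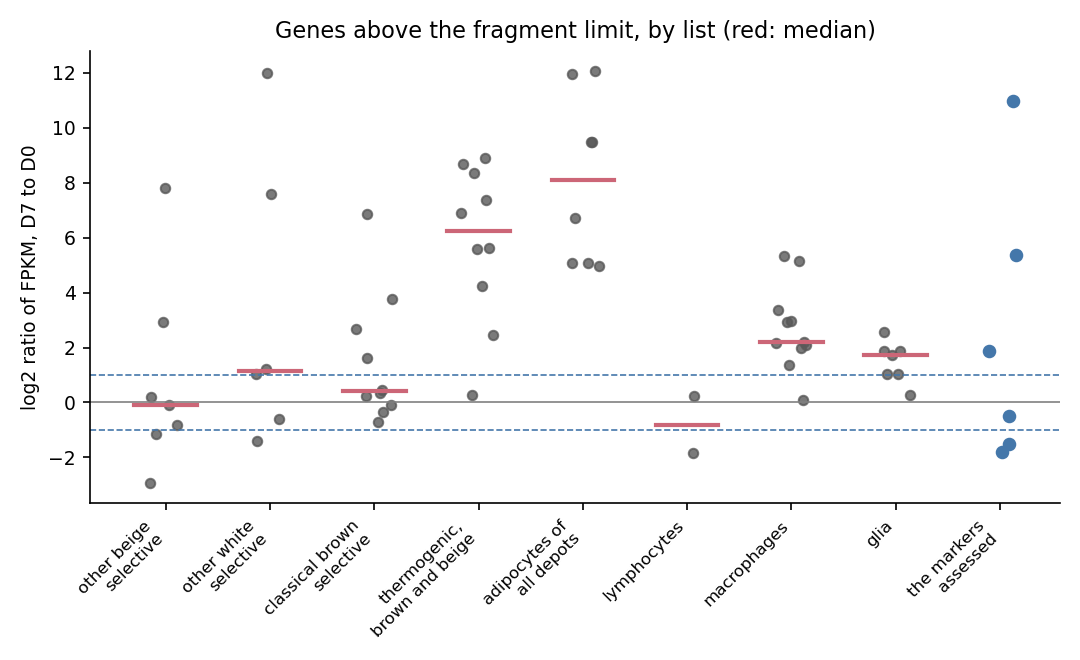
Log2 ratio of FPKM, D7 to D0 (vertical axis), of each gene above the 3-fragment limit in 8 gene lists (grey points, red bars at the median) and of the 6 markers assessed (blue), with dashed lines at 2.0-fold and a grey line at the median of all genes. The markers spread from -1.80 for Shox2 to 10.97 for Slc36a2, past the dashed lines on either side, while all points of the list for adipocytes of all depots lie above them.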

How the data were processed

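RNA-Seq of 1 D0 and 1 D7 library was analysed. The authors removed duplicate and rRNA reads, used SOAP2 with mm10 and gene sequences as targets according to the study's methods (the submitters' processing notes name Bowtie2), and deposited FPKM values for 27324 rows. Of these, 3963 held no value and were left out. The fold threshold of 2.0 and its inverse 0.5 were applied to the FPKM values as deposited. The markers and gene lists were chosen with earlier results of these data known.

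A fragment count was computed as FPKM times corrected length times the number of fragments. The corrections (179 bp at D0, 182 bp at D7) and denominators were fitted on 592 single-exon genes from 600 bp upwards. Other genes took the named GENCODE M21 transcript inside the deposited locus, a choice made after seeing the data. Lengths were found for 21735 genes. A value of up to 3 fragments was treated as a limit. All markers were named. Of each list up to 4 genes were named (extreme ratios among genes with at least 20 fragments in a library, the highest FPKM, and genes at 0), and in the P2X, SLC36, SLC7 and CITED families any with at least 20 fragments. Tnfsf9, Tcf3, Tcf4, Tcf12, Lck, Gfap, P2rx7 and Hoxc9 were added after their values were seen. The fit, calls and intervals were tested on simulated data. Calculations used scipy 1.17.1, pandas 2.3.3 and numpy 2.4.6 under Python 3.11.15, and figures matplotlib 3.10.9.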

Additional observations from a re-analysis of the deposited data

How the results depend on the processing

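The ratios of Shox2 (0.268 to 0.334) and P2rx5 (3.10 to 3.81) stayed past 2.0-fold over pseudocounts of 0.1 and 1 and scalings by the median, the upper quartile, TPM or a trimmed mean, while Slc36a2 fell to 120.9 and Tmem26 to 0.909 with a pseudocount of 1. With a threshold of 4.0-fold, 1 marker was higher and 0 were lower, and 1211 of all genes were higher and 578 lower, where 2767 and 1980 were at 2.0-fold. Of the 2 markers lower at D7, 1 was left with a pseudocount of 0.1, with a pseudocount of 1, with a filter at an FPKM of 1 in a library, and with a limit of 10 fragments, and in each case Tmem26 was lost. A pseudocount of 1 left 1455 of all genes higher and 1009 lower. A floor of 0.01 with division by the median of all values, chosen after seeing the data, moved ratios of genes above the floor in both libraries by -0.352 on the log2 scale. It gave 2836 higher and 3832 lower genes, so that lower genes became the larger group, and it also counts genes listed at 0 in a library. Under it Tnfrsf9 passed 2.0-fold at 0.461, although it rests on 2 fragments and 1 fragment. The other 4 scalings moved the ratios by -0.0996 to 0.0394. Lengths of the whole transcript gave Shox2 an interval of 0.246 to 0.333. No paired analysis was possible because each stage had 1 library, and for the same reason no library could be left out. In all, 61 recomputed counts of called genes kept within 1.5 times their reported value and 11 did not. Values near 3 fragments limit Tbx1, Cited1, Tnfrsf9, Tcf21 and the D0 level of Slc36a2.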

Other observations

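Lists of other cell types found in fat were summarised in the same way, with values of up to 3 fragments as a limit. Of 8 proliferation markers, 0 were higher and 7 lower at D7, with a median log2 ratio of -1.92. Birc5, a protein of dividing cells, had the lowest ratio, 0.109 (0.0655 to 0.169), and Pcna, the sliding clamp of DNA polymerase, was at an FPKM of 50.0 and 33.3. Of 10 markers of fibroblasts and progenitors, 1 was higher, 3 were lower and 6 within 2.0-fold, with a median log2 ratio of -0.51. Col1a1, which had the highest FPKM at D0, was at 1900 and 601, and Cd34, a surface marker of adipose progenitors, was at 1.85 and 15.4, a ratio of 8.29 (6.67 to 10.5).

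Of 10 skeletal muscle markers, 3 were assessed, 0 higher and 2 lower. Acta1, the actin of skeletal muscle, was at 45.4 at D0 and 1.73 at D7, while Myod1, Myf5 and Pax7 were listed at 0 in both libraries. Of 10 endothelial markers, 7 were assessed, 2 higher, 1 lower and 4 within 2.0-fold, and Cldn5 and Tie1 were listed at 0. Flt1 had the highest FPKM of this list, 3.75 and 3.05, and Tek the highest ratio, 3.11 (2.23 to 4.39), on 50 and 132 fragments. Of 8 erythroid markers with a value, 6 were listed at 0 in both libraries and 1 was assessed.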
